A study of Mus musculus with 4 samples.

Results

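The genes described here are 10 members of the interleukin-6 (IL-6) family, 6 ligands (Il6, Il11, Lif, Osm, Clcf1 and Ctf1) and 4 receptor subunits (Il6ra, Il6st, Lifr and Osmr), taken by gene symbol from the 32285 genes of the count matrices of 1 young and 1 old mouse. All 10 symbols were present once in both matrices. Each animal gave a single cell RNA library and, from the same cells, a library of 1 barcoded antibody against the surface protein CD24 (CITE-seq). Both mice were untreated INK-ATTAC animals, 6 months old (young) and 24 months old (old). INK-ATTAC mice, young and old alike, carry a transgene in which a fragment of the p16 promoter drives a FLAG-tagged, drug-inducible caspase 8. Marrow and collagenase-digested bone of femur and tibia were pooled within each animal, cleared of red cells, depleted of lineage-marked blood cells (CD5, B220, CD11b, Gr-1, 7-4, Ter-119) and sorted for live CD45- cells, so that blood cells in these data are those that passed the depletion and the gate. With 1 mouse per age, age and animal cannot be told apart, and no test of age was made.

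Cytokines of this family signal by bringing together receptor chains that include gp130, the product of Il6st, the subunit shared by the family. IL-6 and IL-11 first bind a private receptor chain (IL-6R, from Il6ra, or IL-11R), whereas LIF, cardiotrophin-1 and cardiotrophin-like cytokine (Clcf1) use a complex of gp130 with the LIF receptor, and oncostatin M (Osm) uses gp130 with the LIF receptor or with the oncostatin M receptor. The assembled receptors activate JAK kinases and mainly STAT3, which induces its own feedback inhibitor Socs3. In bone, gp130 cytokines are known to act on osteoblasts, stromal cells, chondrocytes and osteoclast formation, and IL-6 is among the factors that senescent cells secrete.

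Cells were kept when they held at least 200 genes and at most 20% mitochondrial counts, which left 10063 young and 5607 old cells with 81076421 and 66702846 unique molecular identifiers (UMIs, counted molecules). The median was 6385 UMIs per young and 9711 per old cell. Of 25 barcodes found in both libraries, 19 passed these limits in each, and they held at most 6.87% of the UMIs of a member in 1 library (Osm, old). Cells were assigned by the UMIs of marker genes to groups that each had at least 20 cells in both mice, 6 mesenchymal (stromal, osteoblast, chondrocyte, fibroblast, tendon and pericyte-like) and 5 blood (erythroid, granulocyte, B lineage, megakaryocyte and progenitor-like), while 30.1% of young and 37.7% of old cells met no rule. A cell needed 3 detected markers of a class. Its marker share was divided by the mean share of that class over all kept cells of both mice. This ratio had to be at least 2, and at least 2 times the ratio of the next class (at least 4 times in the stricter assignment named below). In 9 of the 11 groups all 8 of their markers were detected, and in the other two 7 of 9 (granulocyte-like) and 5 of 6 (progenitor-like). The share of a group's cells that lay near the assignment limits ran from 1.35% (young megakaryocyte-like) to 57.2% (old stromal-like).

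Levels are given as CPM, the UMIs of a gene per 1000000 UMIs of the group, young before old where a pair is given, and are compared between groups within a gene, not between genes. Intervals are exact 95% Poisson intervals and cover counting error only. Fewer cells of a type and less RNA per cell cannot be told apart in sums over all cells, and RNA freed from other cells can put UMIs of a gene into any group. Chondrocyte-like cells held osteoblast marker UMIs at 10606 and 14873 CPM beside chondrocyte marker UMIs at 10618 and 8978 CPM, so in the summed UMIs of the old mouse osteoblast markers exceeded their own. The median levels per cell were 1785 and 2974 CPM for osteoblast and 6254 and 3635 CPM for chondrocyte markers.

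The RefSeq promoter table (build GRCm38.p6) held 10 windows of 300 bases, 250 before and 50 after a transcription start, for 8 of the 10 members, with no entry for Osm or Clcf1. Il6 (chromosome 5, 30013114-30019975), Il11 (chromosome 7, 4772373-4782907) and Lif (chromosome 11, 4257568-4272514) are shown because their windows hold letters of the motifs of inflammatory transcription factors, and because the UMIs of these ligands sat in few cells. Capitals mark matches to GGGANTTTC (the NF-kB motif) or TGANTCA (the AP-1 motif), searched on both strands. The windows are Il6 chr5:30012864-30013163 (plus strand), Il11 chr7:4778092-4778391 (minus strand, the second of its windows) and Lif chr11:4257318-4257617 (plus strand).
Il6: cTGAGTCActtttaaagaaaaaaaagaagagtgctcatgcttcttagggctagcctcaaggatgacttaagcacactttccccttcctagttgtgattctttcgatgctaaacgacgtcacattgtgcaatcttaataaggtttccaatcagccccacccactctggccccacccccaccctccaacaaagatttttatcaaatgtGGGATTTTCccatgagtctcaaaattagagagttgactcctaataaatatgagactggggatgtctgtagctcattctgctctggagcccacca
Il11: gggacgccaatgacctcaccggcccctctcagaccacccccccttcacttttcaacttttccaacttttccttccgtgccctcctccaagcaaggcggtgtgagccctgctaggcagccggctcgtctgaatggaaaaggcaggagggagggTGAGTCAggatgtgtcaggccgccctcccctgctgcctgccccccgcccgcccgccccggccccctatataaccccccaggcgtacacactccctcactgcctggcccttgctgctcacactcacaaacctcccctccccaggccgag
Lif: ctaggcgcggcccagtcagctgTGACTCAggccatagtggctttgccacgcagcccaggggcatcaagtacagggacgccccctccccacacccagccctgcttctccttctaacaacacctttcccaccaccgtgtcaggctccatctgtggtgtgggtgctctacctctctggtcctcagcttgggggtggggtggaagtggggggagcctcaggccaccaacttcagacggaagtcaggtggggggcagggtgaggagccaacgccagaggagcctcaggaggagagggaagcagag

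The Il6 window held 1 NF-kB match 44 to 36 bases before the start and 1 AP-1 match 249 to 243 bases before it. The second Il11 window held its AP-1 match 98 to 92 bases and the Lif window 228 to 222 bases before the start. The window of Osmr held 1 AP-1 match 3 to 9 bases after it. No window of a member matched TTCNNNGAA, the STAT motif. Ctf1, Il6ra, Il6st, Lifr and the first window of Il11 (chr7:4782808-4783107) held none of the 3 motifs. Among all 32851 windows of the table, 1.11% held the NF-kB, 7.81% the AP-1 and 8.30% the STAT letters, so a match is common for the last pair and describes these letters only. Of the other members, Osm (chromosome 11, 4236785-4241026) lies 16541 bases from Lif, and Osmr (chromosome 15, 6813568-6874968) lies 215641 bases from Lifr (chromosome 15, 7090610-7197489). Clcf1 is on chromosome 19 (4214238-4223505), Ctf1 on chromosome 7 (127712676-127718188), Il6ra on chromosome 3 (89869324-89913196) and Il6st on chromosome 13 (112464070-112506860).

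Across all kept cells Il6st, Lifr and Osmr were spread over many cells and the ligands over few. Il6st had 15355 young and 12638 old UMIs, found in 60.8% and 64.6% of cells. Lifr had 14827 and 16093 UMIs in 40.9% and 49.8% of cells, and Osmr 4624 and 4642 UMIs in 29.6% and 40.9%. The 10 cells with most UMIs held 1.07% and 1.62% of Il6st, 4.19% and 4.85% of Lifr, and 1.95% and 3.55% of Osmr. Cells with at least 5 UMIs of the gene held 31.7% and 53.1% of Il6st, 59.6% and 78.7% of Lifr, and 9.17% and 19.9% of Osmr.

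Il6, in contrast, had 4016 and 4060 UMIs in 591 (5.87%) and 422 (7.53%) cells, and 59 young and 36 old cells held as many of them as all other cells together. Cells with at least 5 UMIs, 205 young and 171 old ones, held 83.3% and 89.4% of Il6. Il11 was still more uneven, with 516 and 192 UMIs, of which 5 young and 17 old cells held as many as all other cells together. Lif (297 and 146 UMIs in 153 and 96 cells) and Osm (495 and 902 UMIs in 155 and 214 cells) had 10 top cells with 33.0% and 32.9%, and 26.1% and 27.4%, of their UMIs. Clcf1 (292 and 277 UMIs) and Ctf1 (194 and 175 UMIs) were seen almost only as single molecules: 91.8% and 86.3% of the cells with Clcf1, and 97.4% and 95.2% of those with Ctf1, held 1 UMI. Il6ra lay between, with 968 and 745 UMIs in 7.58% and 9.77% of cells.

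**Figure D1:**
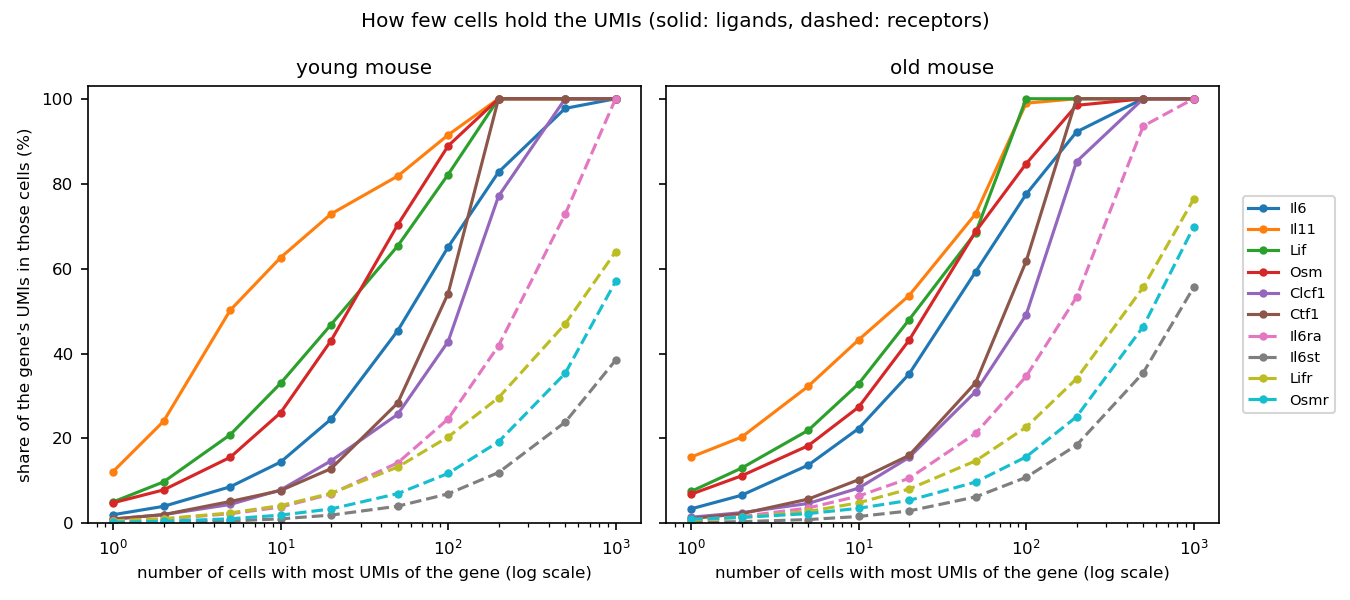
Share of a gene's UMIs (y axis, %) held by the cells with most of them (x axis, number of cells, log scale), with the young mouse left, the old mouse right, ligands as solid and receptor subunits as dashed lines. The curve of Il11 in the young mouse starts highest (62.6% of UMIs in 10 cells, against 43.2% in the old mouse), and the curve of Il6st lies lowest (1.07% and 1.62%).

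Every member differed between the 11 cell groups. In the fit of the UMIs summed per mouse and group (22 sums, the mouse as a block, edgeR's quasi-likelihood test with Benjamini-Hochberg adjustment), all 10 passed, from adjusted p = 2.70e-15 for Osm to 0.00132 for Ctf1, but so did 96.3% of the 14346 genes tested. The contrasts that follow set each mesenchymal group against the mean of the other 5, and the blood groups against the mesenchymal groups. The fold changes are on the log2 scale with their standard errors (SE), and a gene passed when its adjusted p was below 0.05. A mean of log levels has no finite estimate where a group of the contrast held 0 UMIs of the gene in both mice. Such a test was taken as void where it did not pass (11.5% to 14.0% of all genes, by contrast), and where it passed, the fitted fold change depends on the prior count.

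**Figure D2:**
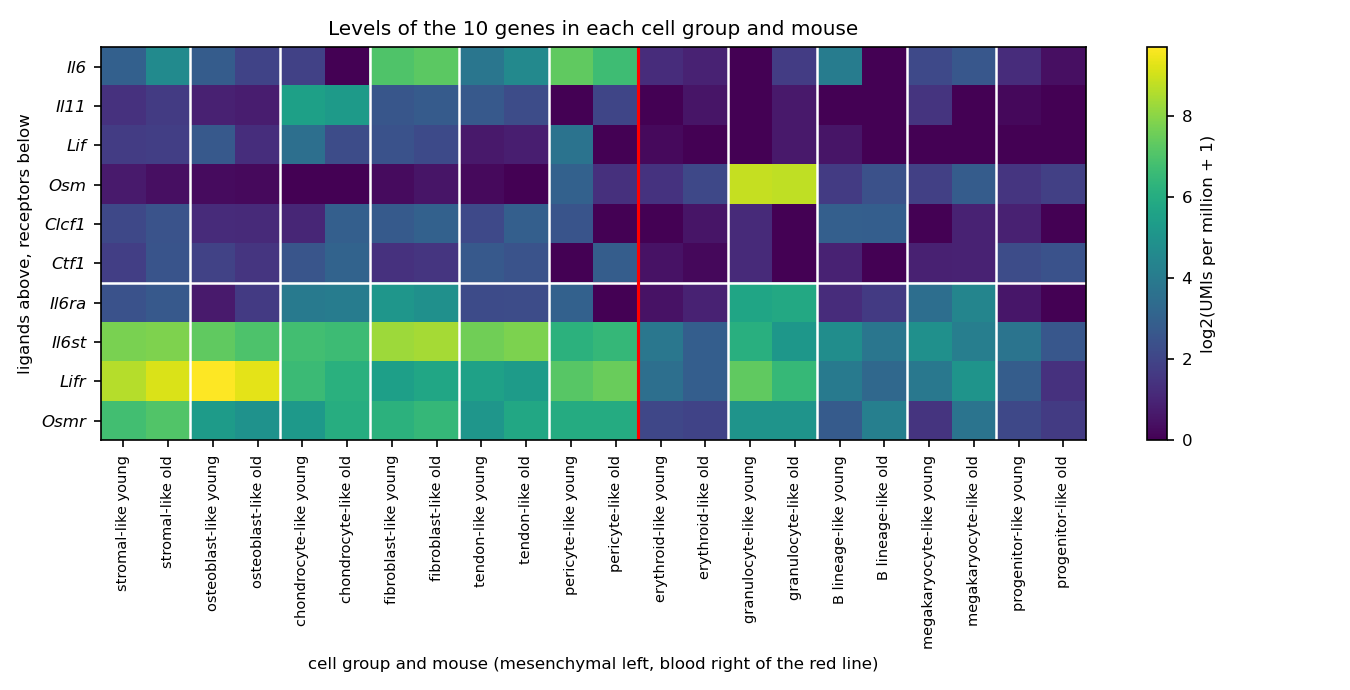
Levels of the 10 genes (rows, ligands above receptors) in each cell group and mouse (columns, blood groups right of the red line) as log2(CPM + 1). Osm is bright in granulocyte-like cells of both mice (465 and 443 CPM), Il11 in chondrocyte-like cells (44.7 and 38.5 CPM), and Lifr in osteoblast and stromal-like cells (833 and 627, 393 and 563 CPM).

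Among ligands, Il6, the inflammatory cytokine that names the family, was highest in fibroblast and pericyte-like cells. Fibroblast-like cells held 130 (interval 125 to 135) and 151 (143 to 158) CPM, from 2435 and 1636 UMIs, which was 60.6% of all young and 40.3% of all old Il6 UMIs. Pericyte-like cells held 161 and 102 CPM, but from 68 and 66 UMIs in 13 and 12 cells. The ranges of these 2 groups over both mice overlapped, and neither overlapped with any other group. Tendon-like cells (13.2 and 22.6 CPM) and stromal-like cells (6.84 and 23.9 CPM) overlapped with each other, and the other groups held at most 15.6 CPM. That highest value, in young B lineage-like cells, came from 35 UMIs of which 22 were in 1 cell, and 22 of the 29 UMIs in young osteoblast-like cells were in 1 cell too. Il6 was seen in 13.3% and 15.5% of fibroblast-like cells (median 7548 and 13221 UMIs per cell), against 2.13% and 1.49% of the deeper erythroid-like cells (11729 and 14907). Cells in no group held 31.9% and 49.4% of all Il6 UMIs (54.8 and 91.4 CPM).

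Relative to the mean of the other mesenchymal groups, Il6 was higher in fibroblast-like cells (log2 fold change 3.56, SE 0.32, adjusted p = 9.66e-08) and in pericyte-like cells (3.31, SE 0.46, adjusted p = 2.71e-05). It was lower in osteoblast-like cells (-2.35, SE 0.66, adjusted p = 0.0169) and in chondrocyte-like cells (-3.87, SE 0.90, adjusted p = 0.00494), where 5 young and 0 old UMIs were counted, the latter a count that allows up to 2.81 CPM. With each cell thinned to 2000 UMIs, the chondrocyte-like contrast did not pass (adjusted p = 0.0807). Stromal-like cells did not differ from the mean of the others (-0.56, adjusted p = 0.379), and the single mice gave opposite signs there (-1.68 for the young and 0.81 for the old animal).

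Il11, a cytokine with known effects on bone and on matrix-producing cells, was highest in chondrocyte-like cells, with 44.7 CPM (35.6 to 55.4) in the young and 38.5 CPM (27.6 to 52.2) in the old mouse. No other group exceeded 5.98 CPM (old fibroblast-like cells). These 83 and 41 UMIs lay in 6 cells of each mouse, and 1 cell alone held 57 of the young and 30 of the old ones. The next cell held 18 and 7, so that 2 cells held 90.4% of the young and 90.2% of the old UMIs. Without the top cell alone the levels were 14.0 and 10.3 CPM, above every other cell group (cells in no group held 12.1 and 1.82 CPM). Levels without both cells were not computed, so the high level of this group rested on 2 cells of each mouse. The log2 fold change was 4.32 (SE 0.33, adjusted p = 3.83e-08), and 2.75 without the top cell of each sum. Il11 was lower in stromal-like (-1.42, SE 0.48, adjusted p = 0.0261) and osteoblast-like cells (-2.61, SE 0.63, adjusted p = 0.00682), both from counts of 4 to 21 UMIs. With cells thinned to 2000 UMIs these 2 tests were void, since pericyte-like cells then held no Il11 UMI. In the young mouse 284 of the 516 Il11 UMIs were in cells of no group, with 63, 61 and 60 of them in 3 cells that each expressed 2 chondrocyte markers, where the rule for that group requires 3.

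Osm was concentrated in granulocyte-like cells, with 465 CPM (420 to 514) and 443 CPM (412 to 475), from 385 and 782 UMIs. They held 77.8% and 86.7% of all Osm UMIs, and no other group exceeded 7.12 CPM. Osm was seen in 57.0% and 47.5% of granulocyte-like cells (48.0% and 41.1% with cells thinned to 2000 UMIs), against 1.22% and 2.99% of erythroid-like cells. In granulocyte-like cells 10.3 and 10.5 Osm UMIs were counted per 1000 UMIs of the granulocyte markers. Osm is the ligand of the family best known from myeloid cells. Granulocyte-like cells were cells that passed a depletion of Gr-1 and CD11b and a CD45- gate, and 1 shared barcode held 62 of the 902 old Osm UMIs. The 4 Osm UMIs of pericyte-like cells lay in 2 cells (3 in a young and 1 in an old cell), and the contrast of this group passed (adjusted p = 0.00888). No Osm UMI was found in chondrocyte-like cells of either mouse, so the Osm contrasts of the other 5 mesenchymal groups were void, as was that of pericyte-like cells with a stricter assignment.

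Lif, Clcf1 and Ctf1 were counted in small numbers in every group. Lif, which maintains stem cells and is made by many stromal cells, had its largest young values in pericyte-like cells (11.9 CPM, 5 UMIs in 1 cell) and chondrocyte-like cells (10.8 CPM, of which 15 of 20 UMIs were in 1 cell), against 0 and 3.75 CPM in the old mouse. The pericyte-like value came from a called doublet: with doublets removed, these cells held no Lif UMI. Fibroblast-like cells held 4.43 and 3.50 CPM and stromal-like cells 2.28 and 2.50 CPM, both from more cells. Lif was higher in chondrocyte-like cells than in the other mesenchymal groups (1.70, SE 0.56, adjusted p = 0.0455), a call that did not hold without the mouse as a block (adjusted p = 0.0586) or with DESeq2 (0.0682). Tendon-like cells, with 3 UMIs in each mouse, were lower (-2.61, SE 0.69, adjusted p = 0.0186), which did not pass with a stricter assignment (adjusted p = 0.0568) and was void with doublets removed. No Lif UMI was counted in megakaryocyte or progenitor-like cells.

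Clcf1, which also drives B cell maturation, held 6.70 and 6.45 CPM in B lineage-like cells (15 and 3 UMIs) and 5.77 and 7.09 CPM in fibroblast-like cells (108 and 77 UMIs). Osteoblast-like cells had 1.27 and 1.26 CPM. The neighbours in the order of the groups overlapped over both mice, except osteoblast-like and granulocyte-like cells (1.21 and 0 CPM). Clcf1 was higher in fibroblast-like cells (1.28, SE 0.42, adjusted p = 0.0314), a call lost without the block (adjusted p = 0.0595), with DESeq2 (0.0512) and with a stricter assignment (0.0525). Ctf1, the gene of cardiotrophin-1, had 4.84 and 7.51 CPM in chondrocyte-like and 5.60 and 4.56 CPM in tendon-like cells, which overlapped. Progenitor-like cells followed with 3.83 and 4.49 CPM, below both ranges. It was lower in fibroblast-like cells, with 1.60 and 1.84 CPM (-1.13, SE 0.39, adjusted p = 0.0390).

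**Figure D3:**
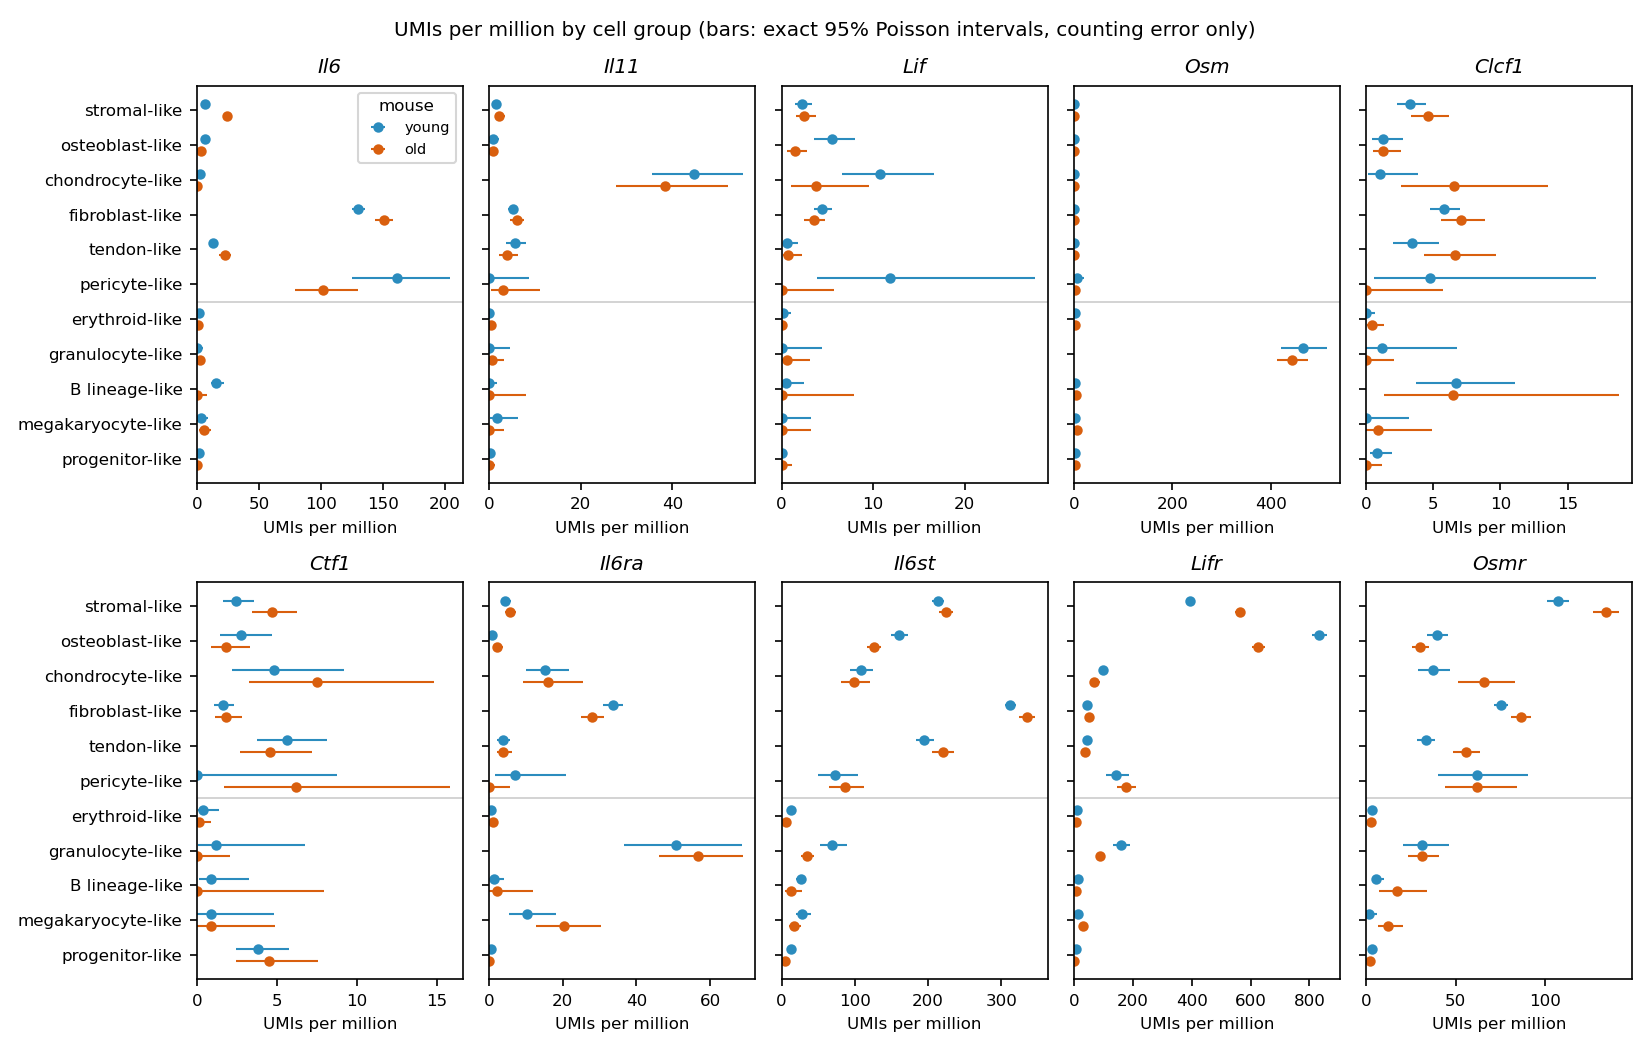
Level in CPM of each gene (x axes, each from 0) in the 11 cell groups (rows, mesenchymal above the grey line, blood below) for the young and the old mouse, with exact 95% Poisson intervals. The points of both mice lie together for Osm in granulocyte-like (465 and 443 CPM) and Il6st in fibroblast-like cells (312 and 335 CPM), and apart for Lifr in osteoblast-like cells (833 and 627 CPM).

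Among receptor subunits, Il6ra, the private receptor chain of IL-6, was highest in granulocyte-like cells (50.8 and 56.6 CPM, 42 and 100 UMIs) and next in fibroblast-like cells (33.5 and 28.0 CPM, 627 and 304 UMIs). The ranges of these 2 groups did not overlap. Megakaryocyte-like cells (10.3 and 20.2 CPM) and chondrocyte-like cells (15.1 and 16.0 CPM) followed, and overlapped. Stromal and tendon-like cells held 3.60 to 5.62 CPM, and osteoblast-like cells 0.634 and 2.16 CPM. Il6ra was higher in fibroblast-like (2.95, SE 0.25, adjusted p = 5.32e-08) and chondrocyte-like cells (1.90, SE 0.40, adjusted p = 0.00256) and lower in osteoblast-like cells (-2.28, SE 0.54, adjusted p = 0.00544), the last from 3 and 12 UMIs. The chondrocyte and osteoblast-like calls did not pass with cells thinned to 2000 UMIs (adjusted p = 0.298 and 0.0942).

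Il6st, the shared signalling chain gp130, was highest in fibroblast-like cells, with 312 CPM (304 to 320) and 335 CPM (324 to 346). Stromal-like (213 and 225), tendon-like (195 and 220) and osteoblast-like cells (161 and 126) followed, then chondrocyte-like (108 and 99.5) and pericyte-like cells (73.5 and 86.6). Stromal and tendon-like cells overlapped over both mice. Blood groups other than granulocyte-like cells held 5.14 to 28.4 CPM. Il6st was higher in fibroblast-like cells (1.23, SE 0.18, adjusted p = 4.50e-05) and lower in pericyte-like cells (-1.26, SE 0.27, adjusted p = 0.00210).

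Lifr, the chain shared by LIF, cardiotrophin-1, Clcf1 and oncostatin M, was highest in osteoblast-like cells (833 and 627 CPM, intervals 808 to 860 and 606 to 648) and then in stromal-like cells (393 and 563 CPM). Fibroblast-like (43.5 and 51.9) and tendon-like cells (46.2 and 39.3) held the lowest mesenchymal levels. The contrast with the other mesenchymal groups was 2.87 (SE 0.20, adjusted p = 8.44e-09) in osteoblast-like and 1.86 (SE 0.21, adjusted p = 9.71e-07) in stromal-like cells. It was -1.91 (SE 0.27, adjusted p = 2.55e-05) in fibroblast-like and -2.16 (SE 0.28, adjusted p = 3.12e-05) in tendon-like cells. These 4 calls passed under each of the 8 alternative settings.

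Osmr, the chain that oncostatin M uses beside Lifr, was highest in stromal-like cells (107 and 134 CPM), with fibroblast-like cells next (75.1 and 86.2 CPM). These ranges did not overlap. Pericyte-like (61.7 and 61.9), chondrocyte-like (37.1 and 65.7), tendon-like (33.2 and 55.5) and osteoblast-like cells (39.5 and 30.0) held lower levels. Osmr was higher in stromal-like (1.02, SE 0.18, adjusted p = 0.000207) and lower in osteoblast-like cells (-0.82, SE 0.22, adjusted p = 0.0119). Its higher level in fibroblast-like cells (0.56, SE 0.19, adjusted p = 0.0338) did not pass with the size factors of DESeq2 (adjusted p = 0.0513), with DESeq2 itself (0.165), without the block (0.0918) or with thinned cells (0.172). Osteoblast-like cells thus had the highest Lifr and the lowest mean Osmr level of the 6 mesenchymal groups.

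Counted over members, fibroblast-like cells differed most often. There 7 of 10 passed (5 higher, 2 lower), beside 26.4% of all genes tested. In osteoblast-like cells 5 passed (1 higher, 4 lower), beside 18.8% of all genes. In chondrocyte-like cells 4 passed (3 higher, 1 lower), beside 17.9%. In stromal-like cells 3 passed (2 higher, 1 lower), beside 39.2% of all genes, so the members' share was not above the background there. With the size factors of DESeq2 in place of TMM, the split of the stromal-like calls over all genes went from 3337 higher and 2282 lower to 2875 and 2902. Pericyte-like cells had 3 (2 higher, 1 lower), beside 19.7%, and tendon-like cells 2 lower, beside 13.4%. The median log2 fold change of the members was 0.61 in fibroblast-like cells, where that of all genes was 0.05, and -0.71 in osteoblast-like cells, where that of all genes was 0.02. Without the void Osm these medians were 0.67 and -0.82.

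Blood groups held less of most members than mesenchymal groups. Of the 10 members 9 passed (1 higher, 8 lower), beside 65.5% of all genes, and the median of the members was -2.62 against -0.05 over all genes (-2.51 without Il11, Lif and Osm, which a group held at 0). Il6st (-2.79, SE 0.14, adjusted p = 9.49e-12), Lifr (-2.77, SE 0.17, adjusted p = 7.12e-11) and Osmr (-2.74, SE 0.17, adjusted p = 1.09e-10) were all lower. Osm alone was higher (adjusted p = 4.18e-09), with granulocyte-like cells holding 385 and 782 UMIs. Il6ra did not pass (-0.52, adjusted p = 0.221). Lif (adjusted p = 5.21e-05) and Clcf1 (-1.76) were lower in blood groups. The blood contrasts of Osm and Il11 were void with thinned cells, and those of Lif and Clcf1 with doublets removed.

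Granulocyte-like cells were the blood group with most receptor UMIs. Lifr stood at 160 and 89.4 CPM there, Il6st at 68.9 and 34.5 and Osmr at 31.4 and 31.1 CPM. The other blood groups held 1.60 to 31.7 CPM of Lifr and 1.72 to 17.2 CPM of Osmr. Granulocyte-like cells also carried stromal marker UMIs, at 14896 and 6936 CPM against 47857 and 43738 CPM in stromal-like cells. These summed marker levels and the levels of Lifr and Il6st were both higher in the young mouse. The median stromal marker level per granulocyte-like cell was not (2147 young and 2309 old CPM). The part of the stromal RNA in the receptor levels was not tested.

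Pairs of receptor chains were then counted within cells, with each cell thinned to 2000 UMIs because the old cells held more UMIs each. Lifr and Il6st, the chains of the LIF receptor, were both seen in 18.8% of young and 15.8% of old osteoblast-like cells and in 16.5% and 21.1% of stromal-like cells (50.2% and 72.4%, and 45.4% and 68.7%, before thinning). In fibroblast-like cells the share was 3.87% and 5.12%, and in erythroid-like cells, taken as background, 0.313% and 0%. Osmr and Il6st were both seen in 6.77% and 9.84% of stromal-like and 6.46% and 7.68% of fibroblast-like cells, shares that lie close together. Il6ra and Il6st were both seen in 3.14% and 1.92% of fibroblast-like cells and in none of the 127 young and 246 old thinned granulocyte-like cells, which allows shares of up to 2.86% and 1.49%. Before thinning, 6.96% and 1.97% of granulocyte-like cells (11 and 6 cells) held both, and 18.4% and 24.7% of fibroblast-like cells. In stromal-like cells 9.77% and 14.7% held both Lifr and Osmr.

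The remaining genes of the family give the other chains of these complexes, and 6 of 10 listed were high enough to test across groups. Il11ra1, the receptor chain of IL-11, was higher in tendon-like (449 and 399 CPM, 2.07, adjusted p = 1.87e-07) and fibroblast-like cells (427 and 348 CPM, 1.96, adjusted p = 9.72e-08), though its near-identical copies in the mouse genome make its counts uncertain. Chondrocyte-like cells, the group with most Il11, held 92.6 and 69.4 CPM of it. Cntfr, the receptor chain of ciliary neurotrophic factor and of the Clcf1 complex, was higher in tendon-like cells (57.4 and 26.6 CPM, 2.28, adjusted p = 6.64e-06). Il31ra, the interleukin-31 receptor, was higher in fibroblast-like cells than in the other mesenchymal groups (adjusted p = 0.00187) from 33 and 15 UMIs, with another mesenchymal group at 0. Progenitor-like cells held more of it (8.15 and 13.5 CPM, 49 and 42 UMIs) than fibroblast-like cells (1.76 and 1.38 CPM). Ebi3, a subunit of interleukin-27, stood at 27.8 and 60.6 CPM in granulocyte-like cells, the group with most Osm. Of the 6 genes tested, 3 were higher in fibroblast-like cells (beside 26.4% of all genes called either way), 3 higher in tendon-like (13.4%), 2 lower in stromal-like (39.2%), 2 lower in osteoblast-like (18.8%) and 1 lower in pericyte-like cells (19.7%). The stromal and pericyte-like counts were not above the background.

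Downstream genes were compared next. Socs3, the feedback inhibitor, did not pass in any of the 6 mesenchymal contrasts and was lower in blood groups (-3.23, adjusted p = 3.57e-12). Of 10 JAK-STAT signalling genes, 5 passed in stromal-like cells, beside 39.2% of all genes, among them Jak2 (0.70), Tyk2 (0.55) and Cish (1.51) higher and Socs1 (-1.11) lower. Of 10 genes known to respond to STAT3, osteoblast-like cells had 7 lower, among them Cebpb (-1.59) and Junb (-0.83), and 1 higher, Timp1, an inhibitor of matrix proteases (2.16), beside 18.8% of all genes. In stromal-like cells 4 of the 10 passed, near the background of 39.2%, with Saa3, an acute-phase gene (4.69), and Cebpd (1.06) higher and Mcl1 (-1.12) and Timp1 (-1.67) lower.

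Genes known to respond to NF-kB were high beside Il6 in fibroblast-like cells, where 7 of 10 were higher and none lower (median 2.40), beside 26.4% of all genes called either way. These were the chemokines Ccl2 (4.30), Ccl7 (3.72), Cxcl2 (2.65) and Cxcl1 (2.14), with Ptgs2 (3.25), Tnfaip6 (3.08) and Tnfaip3 (1.06). The contrast covers mesenchymal groups only. Summed over the 10 genes, fibroblast-like cells held 4239 and 2746 CPM. Granulocyte-like cells, with 0 and 4 Il6 UMIs, held more (5064 and 7636 CPM). Over the blood groups 1 of the 10 was higher and 7 lower than in mesenchymal groups, beside 65.5% of all genes called either way. In pericyte-like cells, the other group with high Il6, 1 of 10 was higher and none lower, beside 19.7% of all genes, so this count was not above the background. Immediate-early and stress genes, which tissue digestion can raise, had summed levels of 18853 and 15111 CPM in pericyte-like, 13324 and 15838 CPM in chondrocyte-like and 13425 and 13071 CPM in tendon-like cells. Of these 12 genes, 4 were higher in pericyte-like (beside 19.7% of all genes called either way), 6 higher in chondrocyte-like (17.9%) and 2 lower in fibroblast-like cells (26.4%). The fibroblast-like count was not above the background. The part of these 12 genes in the levels of Il6 and Il11 was not tested.

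The genes whose levels ran most like those of a member over the 22 sums were named by Pearson's correlation of log2(CPM + 1) among 11874 genes, as a description, since the sums share 2 mice and all groups. They were Aoc3 (0.92) and Pkia (0.90) for Il6, and Clec4e (0.95), Slc7a11 (0.95) and Nfam1 (0.94) for Osm. For receptor chains they were Tbx15 (0.99), Antxr1 (0.98) and Rab34 (0.98) for Il6st, Sema5a (0.96), Fign (0.96) and Limch1 (0.94) for Lifr, and Mir100hg (0.96), Rbms3 (0.96) and Sbf2 (0.95) for Osmr. Likeness was lower for Clcf1 (Unc119b, 0.86, Foxp1, 0.83, and Cacnb1, 0.82) and Il6ra (6430548M08Rik, 0.84, Uhrf1bp1l, 0.82, and Tctex1d2, 0.81). Among the members, Il6st and Osmr (0.87), Lifr and Osmr (0.78) and Il6st and Lifr (0.75) ran together, and Osm and Osmr did not (-0.14). Il11, Lif and Ctf1 had under 200 UMIs in a mouse and were left out.

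Cells were next split by the CD24 antibody, the surface marker that the second library of each mouse was made for, into CD24+ cells (15.6% of young and 13.6% of old cells) and CD24- cells. Over all kept cells, 7 of 10 members passed, all lower in CD24+ cells, beside 57.5% of 16230 genes. Il6 stood at 22.2 against 58.2 CPM in the young and 8.05 against 75.3 CPM in the old mouse (adjusted p = 3.28e-10), Osmr at 19.2 against 69.0 and 17.8 against 83.7 (-1.77), and Il6st at 78.0 against 225 and 49.9 against 228 (-1.59). Il6ra (-1.52), Lifr (-1.42), Clcf1 (-0.90) and Osm (-0.80) were lower as well, while Il11 (0.08), Lif (-0.57) and Ctf1 (-0.54) did not pass. Osm (adjusted p = 0.445) and Clcf1 (0.0542) did not pass without the block, nor with DESeq2 (0.0790 and 0.155). With the CD24 threshold set on mesenchymal cells, Lifr was at -0.30 and did not pass (adjusted p = 0.0647), nor did Osm (0.0590). CD24+ cells were blood cells in 49.2% of the young and 58.3% of the old mouse, CD24- cells in 4.59% and 8.19%, and blood groups held less of 8 members. Within the blood groups, 99.0% and 96.0% of B lineage-like and 92.7% and 95.5% of erythroid-like cells were CD24+.

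Within the 6 mesenchymal groups combined, 3 of the 9 members tested passed, beside 13.2% of 14383 genes. Il11 was higher in CD24+ cells, with 21.0 against 3.74 CPM in the young and 18.0 against 3.74 CPM in the old mouse (2.49, SE 0.24, adjusted p = 2.89e-07). Without the top cell of each sum these values were 7.25 against 3.47 and 3.41 against 3.44 CPM, so in the old mouse the difference rested on 1 cell. Of the Il11 UMIs in chondrocyte-like cells, 82 of 83 and 37 of 41 were in CD24+ cells, which were 37.4% and 27.9% of that group. But 2 CD24+ cells of each mouse held most of them (57 and 18 young, 30 and 7 old UMIs). The UMI shares thus give the CD24 status of few cells and not that of the group. Il6st (181 against 250 and 177 against 242 CPM, -0.37, SE 0.09, adjusted p = 0.00529) and Osmr (45.9 against 76.0 and 62.0 against 87.4 CPM, -0.53, SE 0.11, adjusted p = 0.00195) were lower, and neither passed without the block (adjusted p = 0.140 and 0.219) or with DESeq2 (0.130 and 0.123). Lifr did not pass, and its direction differed between the mice (272 against 226 CPM in the young, 250 against 313 CPM in the old). Il6 was 62.6 against 63.7 CPM in the young and 12.7 against 67.8 CPM in the old mouse (-0.68, adjusted p = 0.105), and Lif 11.4 against 3.05 and 1.46 against 2.50 CPM (1.31, adjusted p = 0.0626). Osm, with no UMI in CD24+ mesenchymal cells and 16 and 10 in CD24- cells, was not tested.

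The mix of groups moved with CD24. Chondrocyte-like cells made up 16.4% and 12.2% of CD24+ and 2.05% and 1.75% of CD24- mesenchymal cells, and osteoblast-like cells 29.1% and 33.1% against 9.17% and 11.4%. Fibroblast-like cells, highest in Il6st, made up 21.8% and 17.3% against 39.4% and 30.4%. With the group as a term in the fit (22 sums of 11 pairs), none of the 7 members tested passed, beside 0.0282% of 10652 genes (3 genes, with 619 at an unadjusted p under 0.05, and 3 genes with DESeq2, none of them a member). The Il6st difference was then -0.04 and that of Osmr -0.16, while Il11 stood at 1.39 (adjusted p = 0.853) and Lif at 1.38 (unadjusted p = 0.0298, adjusted p = 0.815).

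**Figure D4:**
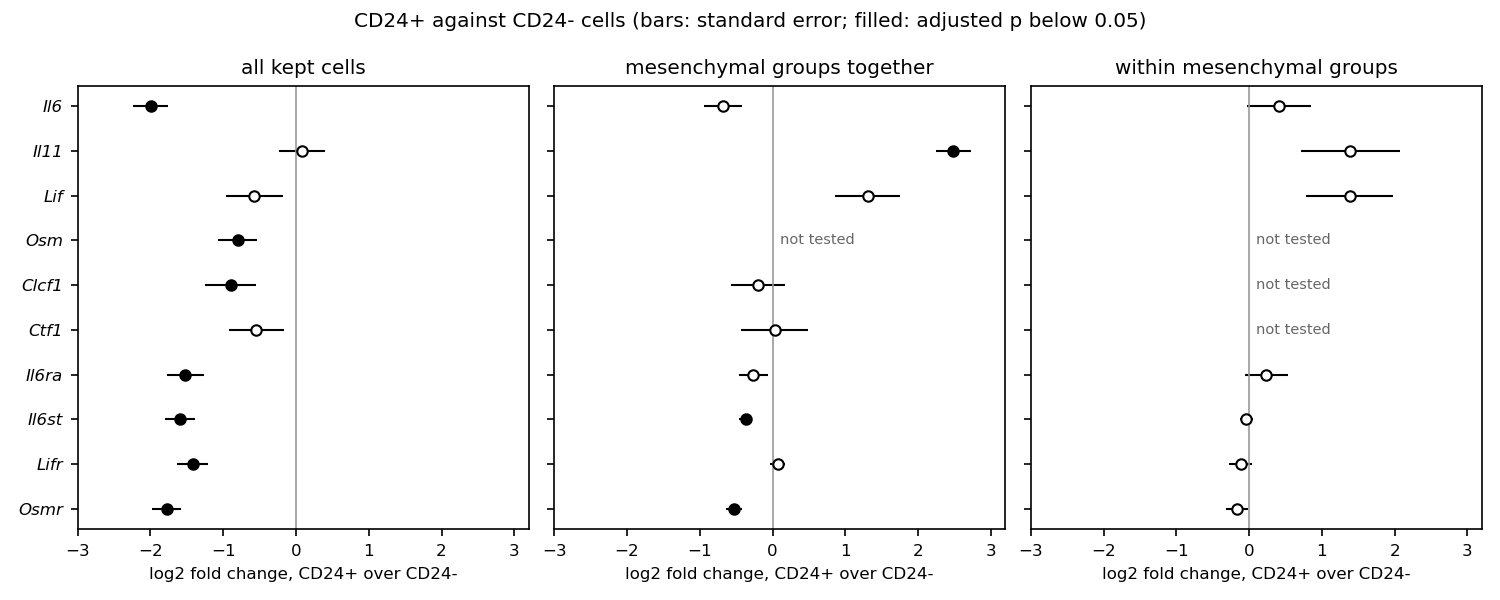
Log2 fold change of CD24+ over CD24- cells (x axis) for each gene (rows) over all kept cells, over the mesenchymal groups together and within these groups, with bars for the standard error and filled points for an adjusted p below 0.05. The points of Il6st move from -1.59 to -0.37 to -0.04 from left to right, and that of Il11 lies at 2.49 in the middle panel.

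The old mouse was set beside the young one as values of 1 animal each, with the ratio of CPM and its 95% counting interval. A gene was counted as past 2-fold in either direction among genes with at least 20 UMIs over both mice. In stromal-like cells 1 of 9 members was past 2-fold, beside 4.77% of all genes. That member was Il6, with 78 young (6.84 CPM) and 230 old UMIs (23.9 CPM), a ratio of 3.50 (2.70 to 4.59). The ratio was 2.50 with thinned cells and 4.74 with doublets removed. Among the old UMIs 45 were in 1 cell, and 4 cells held as many as all the others together. Lifr was 393 against 563 CPM in these cells (ratio 1.43, 1.38 to 1.49), Osmr 107 against 134 (1.25, 1.15 to 1.35) and Il6st 213 against 225 (1.05, 0.993 to 1.12).

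In osteoblast-like cells 2 of 6 members were past 2-fold, both lower in the old mouse, beside 7.01% of all genes. Il6 went from 29 to 16 UMIs (ratio 0.469, 0.238 to 0.893) and Lif from 26 to 8 (0.262, 0.102 to 0.595). Of the young UMIs 22 of Il6 lay in 1 cell and 20 of Lif in 2 cells, and with a stricter assignment the ratio of Lif was 1.62. Lifr went from 833 to 627 CPM (0.752, 0.718 to 0.787), but with cells thinned to 2000 UMIs the ratio was 0.975. The lower Lifr level of the old mouse in osteoblast-like cells was thus nearly gone with thinned cells. Thinning also gives each cell equal weight and drops cells under 2000 UMIs (589 of 620 young and 322 of 333 old cells stayed). Which of these moved the ratio was not tested.

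In fibroblast-like cells 0 of 9 members were past 2-fold, beside 4.26% of all genes, and Il6 was 130 against 151 CPM (1.16, 1.09 to 1.23). In granulocyte-like cells 0 of 5 were past 2-fold, beside 17.3% of all genes. Osm stood at 465 against 443 CPM there (0.951, 0.841 to 1.08), whereas Lifr (0.560, 0.442 to 0.711) and Il6st (0.501, 0.343 to 0.732) were lower in the old mouse. The summed stromal marker level of this group was lower there too, but its median per cell was not. Of the remaining groups, tendon-like (0 of 8, beside 4.67% of all genes) and pericyte-like cells (0 of 4, beside 8.29%) had no member past 2-fold. Chondrocyte-like cells had 1 of 6, Lif, lower in the old mouse (beside 12.3% of all genes), and erythroid-like cells 1 of 4, Il6st, lower (7.26%). In B lineage-like cells 3 of 4 were past 2-fold (beside 11%), with Il6 (35 young and 0 old UMIs, 22 of the young in 1 cell) and Il6st (59 and 6 UMIs) lower and Osmr (13 and 8 UMIs, 2.96, 1.06 to 7.70) higher, but with doublets removed the Osmr ratio was 0.666. In progenitor-like cells 2 of 4 were (6.34%), Il6st (75 and 16 UMIs) and Lifr (38 and 5 UMIs), both lower, but the Il6st ratio was 2.04 with doublets removed and the Lifr ratio 1.21 with thinned cells. In megakaryocyte-like cells 1 of 3 was, Lifr (16 and 36 UMIs), higher (7.52%). Over the mesenchymal groups together 0 of 10 members were past 2-fold, beside 5.25% of all genes, with Lifr at 1.34 (1.30 to 1.38), Il6 at 1.01 (0.953 to 1.07) and Il6st at 0.976 (0.947 to 1.01).

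Over all kept cells, where the mix of groups enters as well, Osm was 2.21 times as high in the old mouse (1.98 to 2.48) and Il11 0.452 times (0.381 to 0.535), the 2 of 10 members past 2-fold there, beside 6.9% of all genes. The young mouse had 158 and the old mouse 305 granulocyte-like cells. The Il11 value rested on few young cells, 3 of which held 63, 61 and 60 of its 516 UMIs.

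**Figure D5:**
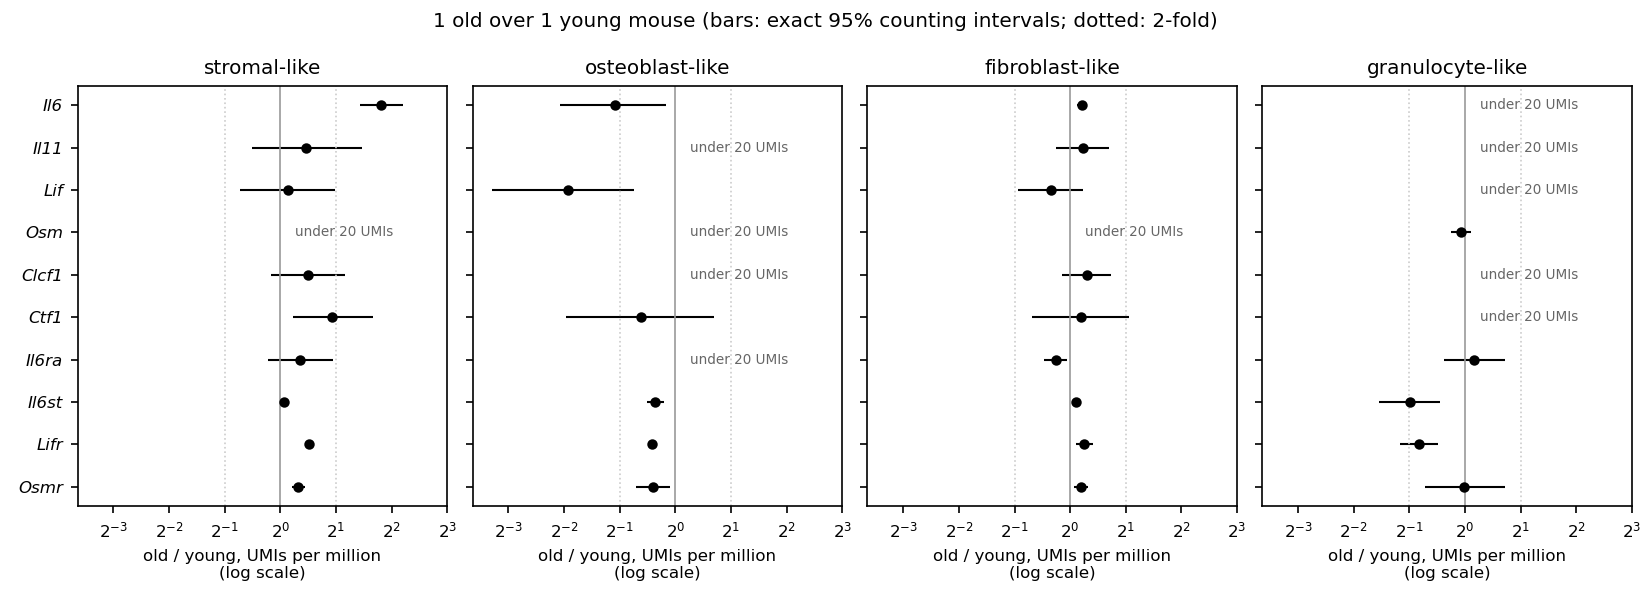
Ratio of CPM in the old over the young mouse (x axis, log scale) for each gene (rows) in stromal, osteoblast, fibroblast and granulocyte-like cells, with exact 95% counting intervals and dotted lines at 2-fold. Il6 lies right of the 2-fold line in stromal-like cells (3.50) and left of it in osteoblast-like cells (0.469), and none of the 9 genes drawn for fibroblast-like cells lies past either line. Genes with under 20 UMIs over both mice have a note in place of a point.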

How the data were processed

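Cells of femur and tibia of 1 young and 1 old INK-ATTAC mouse were profiled by CITE-seq. The authors deposited raw counts: UMI counts per gene and cell barcode (32285 genes and 1 antibody, 11371 young and 6729 old barcodes), from Cell Ranger on mm10 (submitters' notes, version 6.1.1 in the matrix header) with R 4.0.3 and Seurat 4.0. No normalised values were used. Kept barcodes had at least 200 genes and at most 20% mitochondrial UMIs, and doublets were not removed (Scrublet called 269 young and 57 old cells, removed as an alternative). Cells were assigned from 18 marker lists by a rule set after the files were seen. It asked for 3 markers detected, 2 times the mean share over kept cells, and on that ratio 2 times the next class. The 11 groups with at least 20 cells in each mouse were used. The members and gene lists were chosen with earlier results of these data known.

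UMIs were summed per mouse and group and tested with edgeR's quasi-likelihood test (version 4.0.16, R 4.3.3, filterByExpr, TMM, Benjamini-Hochberg adjustment over all genes tested, threshold 0.05) with the mouse as a block, which left 10 residual degrees of freedom for the 22 group sums, 1 for each of the CD24 fits over 4 sums and 14 for the CD24 fit within groups. Same-numbered sums are paired because they came from 1 animal, so these p-values rest on 2 mice and measure the spread between sums. CD24+ cells lay above 312 (young) and 396 (old) antibody UMIs, an Otsu threshold on the log scale. Alternatives were DESeq2 1.42.0 and its size factors, no filter on low counts, no block, doublets removed, a mitochondrial limit of 10%, cells thinned to 2000 UMIs, a stricter assignment (4 times the next class), a CD24 threshold over mesenchymal cells and, for 1 old over 1 young mouse, TMM totals. Scripts ran in Python 3.11.15 with scanpy 1.11.5, NumPy 2.4.6 and SciPy 1.17.1, and the fits were tested on simulated data. All 10 members, counts over the gene lists, and for each member with at least 200 UMIs in each mouse the 3 genes most like it were named by rule, except that values of some genes are not reported here. Single list genes named with values were chosen after their values were seen.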

Additional observations from a re-analysis of the deposited data

How the results depend on the processing

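Of 240 counts of called genes or members recomputed under the alternatives, 194 stayed within 1.5 times the reported count. Of 1395 values of single members, 1300 counted as unchanged. For a tested contrast this meant the same side of the threshold, and for an old over young ratio a value within its counting interval. A change of sign was counted only where the contrast was called, so values that did not pass could change direction and still count as unchanged. Thinning every cell to 2000 UMIs lowered the number of genes called from 5619 to 3214 in stromal, 2692 to 1232 in osteoblast, 2572 to 921 in chondrocyte, 3792 to 2193 in fibroblast, 1922 to 1037 in tendon and 2821 to 1641 in pericyte-like cells, from 9396 to 5299 for blood against mesenchymal groups, from 9332 to 6016 for CD24 over all kept cells and from 1902 to 772 over mesenchymal groups, and raised it from 3 to 5 within them. Members called with thinned cells numbered 3 in osteoblast, 1 in chondrocyte, 4 in fibroblast and 1 in tendon-like cells, and 4 of the 5 that could be tested for blood. With a stricter assignment 1 member was called in tendon-like cells, and 1065 genes were called for CD24 over mesenchymal groups and 6 within them. For CD24 over mesenchymal groups, 5 members were called with no filter on low counts, 1 with DESeq2 (717 genes) and 5 with the threshold set on mesenchymal cells (1048 genes). Within the groups 72 genes were called with no filter and 7 with that threshold. The cause of these shifts, beyond the fewer UMIs of thinned cells, was not tested.

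Without the mouse as a block, the CD24 fit over mesenchymal groups called 1 member and 107 genes. Of the members' 101 fold changes and p-values, 94 stayed on their side of the threshold without the block, and 7 calls were lost. Leaving out either mouse leaves 1 sum per group, which gives values with no test, and no called contrast of a member changed sign in either mouse alone.

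For the old over the young mouse, osteoblast-like cells had 1 member past 2-fold with TMM-scaled totals, 0 with thinned cells and 1 with a stricter assignment (2 as reported), and granulocyte-like cells 1 with doublets removed and 1 with thinned cells (0 as reported). With thinned cells, chondrocyte, erythroid, B lineage, megakaryocyte and progenitor-like cells had 0 and pericyte-like cells 1. Doublets removed, erythroid-like cells had 0, B lineage-like 1 and progenitor-like 1. With a stricter assignment tendon-like cells had 1, erythroid-like 2, megakaryocyte-like 2 and progenitor-like 1, and with the mitochondrial limit of 10% erythroid-like cells had 0. The ratio of Lif in osteoblast-like cells reversed to 1.62 with a stricter assignment, that of Osmr in B lineage-like cells to 0.666 with doublets removed and 0 with thinned cells, and those of progenitor-like cells to 2.04 (Il6st, doublets removed) and 1.21 (Lifr, thinned cells). Alternatives in which a group of a contrast held no UMI of a member gave no test of it, and a call absent there was not counted as lost. Contrasts of ligands rest on few UMIs: with fewer than 3 UMIs in a group the fitted fold change depends on the prior count.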
